A study of Mus musculus with 16 samples.

Results

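A set of 10 heat shock protein genes was followed across sorted mouse spleen CD8 T cells. The genes were chosen by name, as chaperone genes that cells induce or keep at work under protein stress, to read sample handling or cell stress array by array. They are Hspa1a, Hspa1b, Hspa8, Hsp90aa1, Hsp90ab1, Dnajb1, Dnaja1, Hsph1, Hspd1 and Hspe1. Of the 10 genes, 8 had a probe set assigned to that gene alone and were measured, among 22180 such genes on the array. Hsp90ab1 had no listed probe set, and the only probe set of Dnaja1 was shared with the microRNA gene Mir207, so neither is given a value. Hspa8 had several probe sets of its own, and its brightest on average was used.

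The study measured RNA of 16 samples on 1-colour Affymetrix arrays, in 4 groups of 4. The groups, Effector KO with Effector WT and Memory KO with Memory WT, were CD8 T cells from the spleens of bone marrow chimeras, female and of strain C56BL/6 as labelled, in which the marrow was Il4i1 knockout (KO) or wild type (WT). All mice also carried leukaemia cells of the Eµ-TCL1 model, in which a TCL1 transgene is expressed in B cells and gives a disease like chronic lymphocytic leukaemia (CLL), and the cells were sorted 5 weeks after that transplantation. Effector cells were CD44+ and CD127-, and memory cells were CD44high and CD127high. Il4i1 encodes a secreted amino acid oxidase. A chimera keeps its host's own genotype in cells that do not derive from the marrow, and the transplanted leukaemia was present in KO and WT chimeras alike. Whether samples of a group came from separate animals is not labelled, so a p-value here reflects sample-to-sample spread, which may be technical.

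Heat shock proteins are chaperones that bind unfolded protein and help it to fold or hold it until it can. Under heat, oxidation or other protein damage, the transcription factor HSF1 is released from chaperones, binds heat shock elements in the promoters of these genes and drives their transcription within minutes. Dissociating a tissue and sorting its cells is known to induce stress genes, HSP70 genes among them, so their level is often read as a sign of sample handling. T cells also raise several chaperones on activation and growth, when they make much protein. The HSP70 machine consists of HSP70 itself, J-proteins that bring it substrates, and HSP110 proteins that exchange its nucleotide, while HSP90 matures kinases and receptors and HSP60 with HSP10 folds protein inside mitochondria.

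Promoters are shown because a heat shock element is the feature through which these genes are switched on together. The RefSeq windows of assembly GRCm38.p6, from 250 bases before to 50 bases after each annotated start, covered 7 of the 10 genes with 12 windows. They were searched for GAANNTTC and TTCNNGAA, the 2 arrangements of neighbouring heat shock element units, each of which reads the same on both strands. In the stretches that follow, capitals mark matches. A match to either arrangement was found in 7 of the 12 windows, against 15.1% of all 32851 windows of that length. These 7 windows are not separate sites, so the count is not read as an enrichment. The Hsph1 windows overlap, Hspd1 and Hspe1 share an interval, and the Hspa1a and Hspa1b windows are near copies.
Hspa1a (minus strand, chr17:34972233-34972280): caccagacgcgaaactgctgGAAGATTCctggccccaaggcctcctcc
Hspa1b (minus strand, chr17:34959315-34959362): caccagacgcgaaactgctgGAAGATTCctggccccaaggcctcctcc
Dnaja1 (plus strand, chr4:40722324-40722371): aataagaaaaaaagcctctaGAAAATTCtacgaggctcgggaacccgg
Hsph1 (minus strand, chr5:149636342-149636389): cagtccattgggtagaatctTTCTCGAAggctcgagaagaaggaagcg
Hspd1 (minus strand, chr1:55088039-55088096): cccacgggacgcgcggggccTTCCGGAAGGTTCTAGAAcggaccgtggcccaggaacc
Hspe1 (plus strand, chr1:55088039-55088096): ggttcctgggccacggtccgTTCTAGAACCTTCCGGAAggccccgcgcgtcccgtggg

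The stretches of Hspa1a and Hspa1b are the same letters, and over the whole windows these neighbouring genes differ at 4 of 300 bases. Hspd1 and Hspe1 face away from each other and share 1 promoter, so their stretches are the same interval read from opposite strands. That interval holds 3 overlapping matches and also the longer arrangement of 3 units in a row (GAANNTTC followed by NNGAA), which on either strand occurs in 0.603% of all windows. The windows of Hsph1 hold 3 matches each, of which the other 2 lie after the start and are not printed. Those 2 overlap and also form the longer arrangement of 3 units. Neither of the 2 Dnajb1 windows holds a match. A match describes letters in a window and does not show that a factor binds there.

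The deposited values are log2 expression per probe set. A difference of 1 is a 2-fold difference, and without detection calls the files do not tell dim signal from background. As a rough guide, the 16 array medians lay between 4.12 and 4.22. The CD8 and T cell genes were high everywhere: Cd8a lay between 9.72 and 10.3 and Cd8b1 between 11.23 and 11.86 on every array. Il7r, which encodes CD127 and was used for sorting, averaged 4.87 in effector and 10.89 in memory cells. The probe set of the targeted gene is shared by Il4i1, Nup62 and Il4i1b, so it cannot check the genotype labels. Effector KO 4 stood apart from the other 15 arrays: its correlation with them over all genes was 0.965 to 0.974, against 0.971 to 0.994 among the other pairs, and limma's array weights gave it the lowest weight, 0.23. Leaving it out changed no call of the 8 genes, and the values it moved most are given beside the results.

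Hspa1a and Hspa1b encode the same stress-inducible HSP70 protein, the chaperone that most cells hardly make until damaged protein appears. Hspa1a read 5.82, 3.47, 3.17 and 2.99 on the Effector KO arrays and 3.33, 4.09, 3.46 and 4.75 on the Effector WT arrays. It read 8.04, 4.92, 5.54 and 7.27 on the Memory KO arrays and 3.44, 3.86, 4.36 and 7.64 on the Memory WT arrays. Most effector arrays and 2 of the Memory WT arrays lay below their array's median, while Memory KO 1, Memory WT 4 and Memory KO 4 stood far above it. The group means were 3.86 ± 1.32 in Effector KO, 3.91 ± 0.65 in Effector WT, 6.44 ± 1.46 in Memory KO and 4.83 ± 1.91 in Memory WT (SD, n = 4 each). Memory KO came highest and Memory WT next, and the pooled SD within groups, 1.41, was larger in only 4 of the 22180 genes, against a median of 0.19 for all genes. Every neighbouring pair of groups in the order of means overlapped.

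Hspa1b followed the same memory arrays. It read 3.40, 4.49, 3.55 and 4.35 on the Effector KO arrays and 4.1, 3.68, 3.38 and 4.23 on the Effector WT arrays. It read 6.71, 5.23, 4.48 and 5.26 on the Memory KO arrays and 3.95, 4.62, 3.67 and 6.26 on the Memory WT arrays. Memory KO 1, Memory WT 4 and Memory KO 4 were again the 3 highest of the 16 arrays, in the order they have for Hspa1a among memory arrays. The genes parted on Effector KO 1, which was the highest effector array for Hspa1a and the second lowest for Hspa1b. Group means were 3.95 ± 0.55 in Effector KO, 3.85 ± 0.39 in Effector WT, 5.42 ± 0.93 in Memory KO and 4.63 ± 1.16 in Memory WT (SD, n = 4 each). The transcripts are nearly identical, so a probe set assigned to either gene may also read the other. A further probe set, 17336820, is shared by Hspa1a and Hspa1b and was not used. It lay above the array median on none of the 16 arrays, with a mean of 2.45. It read 2.31 on Memory KO 1 and 2.25 on Memory KO 4, so it did not rise there. Its highest array was Memory WT 4, at 2.93. Whether so dim a probe set reads either transcript was not tested.

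Hspa8 encodes HSC70, the constitutive HSP70 that folds new protein and uncoats clathrin vesicles in unstressed cells. It read 11.34, 11.24, 11.36 and 11.26 on the Effector KO arrays and 11.21, 11.18, 11.28 and 11.29 on the Effector WT arrays. It read 11.36, 11.37, 11.51 and 11.56 on the Memory KO arrays and 11.33, 11.37, 11.44 and 11.32 on the Memory WT arrays. All 16 values lay within a narrow band, with a pooled SD within groups of 0.07, and 0.879% of genes had a smaller one. Memory KO 1 and Memory WT 4, the highest arrays for the inducible pair, were among the 3 lowest memory arrays here.

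Hsp90aa1 encodes HSP90 alpha, the more inducible form of the cytosolic chaperone that matures kinases and steroid receptors. It read 8.18, 7.97, 8.10 and 8.03 on the Effector KO arrays and 7.86, 7.71, 7.75 and 7.95 on the Effector WT arrays. It read 8.08, 7.54, 7.81 and 8.02 on the Memory KO arrays and 7.94, 8.0, 7.86 and 7.93 on the Memory WT arrays. Every Effector KO array lay above every Effector WT array, the nearest being 7.97 in Effector KO and 7.95 in Effector WT. How many of all genes separate these groups was not counted, so this is a description. Memory KO 2 was the lowest of all 16. The memory groups overlapped, and the 4 group means were 8.07 ± 0.09 in Effector KO, 7.81 ± 0.11 in Effector WT, 7.86 ± 0.24 in Memory KO and 7.94 ± 0.06 in Memory WT (SD, n = 4 each).

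Dnajb1 encodes HSP40, the J-protein that delivers substrates to HSP70 and stimulates its ATPase. It read 7.53, 7.60, 7.80 and 7.78 on the Effector KO arrays and 7.55, 7.50, 7.65 and 7.68 on the Effector WT arrays. It read 8.01, 7.78, 7.97 and 8.19 on the Memory KO arrays and 7.91, 7.79, 7.83 and 7.98 on the Memory WT arrays. Memory KO 4, Memory KO 1 and Memory WT 4 were the 3 highest, the arrays that were also highest for both HSP70 genes, although the whole range of Dnajb1 was far smaller. Effector and memory arrays overlapped only through Effector KO 3, which passed 2 memory arrays.

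Hsph1 encodes HSP110, which exchanges the nucleotide of HSP70 and helps it to dissolve aggregates. It read 9.64, 9.19, 9.17 and 9.21 on the Effector KO arrays and 8.99, 9.21, 9.38 and 9.05 on the Effector WT arrays. It read 9.0, 8.97, 9.31 and 9.19 on the Memory KO arrays and 8.87, 9.26, 9.32 and 9.22 on the Memory WT arrays. Effector KO 1 was the highest array, and the arrays high for Hspa1a in memory cells were not high for Hsph1. All 4 groups overlapped, with means of 9.30 in Effector KO, 9.16 in Effector WT, 9.12 in Memory KO and 9.17 in Memory WT.

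Hspd1 and Hspe1 encode HSP60 and HSP10, the chamber and the lid of the chaperonin that folds protein in the mitochondrial matrix. Hspd1 read 8.17, 8.19, 8.15 and 7.30 on the Effector KO arrays and 8.21, 8.18, 8.01 and 8.01 on the Effector WT arrays. It read 7.96, 8.0, 8.32 and 7.68 on the Memory KO arrays and 8.34, 8.29, 8.27 and 7.92 on the Memory WT arrays. Effector KO 4, the array that stood apart over all genes, was the lowest of the 16, and Memory KO 4, Memory WT 4 and Memory KO 1 were the 3 lowest memory arrays, the same arrays that were highest for Hspa1a.

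Hspe1, which shares its promoter with Hspd1, read 8.75, 8.37, 8.68 and 8.70 on the Effector KO arrays and 8.76, 8.72, 8.63 and 8.74 on the Effector WT arrays. It read 8.92, 9.12, 9.06 and 9.05 on the Memory KO arrays and 9.10, 9.02, 9.11 and 8.78 on the Memory WT arrays. All 8 effector arrays lay below all 8 memory arrays, with Memory WT 4 and Memory KO 1 the lowest memory arrays. The share of all genes that separate the subsets was not counted. Hspd1 did not separate the subsets in this way, although the genes share a promoter. Across the 16 arrays with group means subtracted, the correlation of Hspd1 with Hspe1 was 0.08, given as a description.

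**Figure D1:**
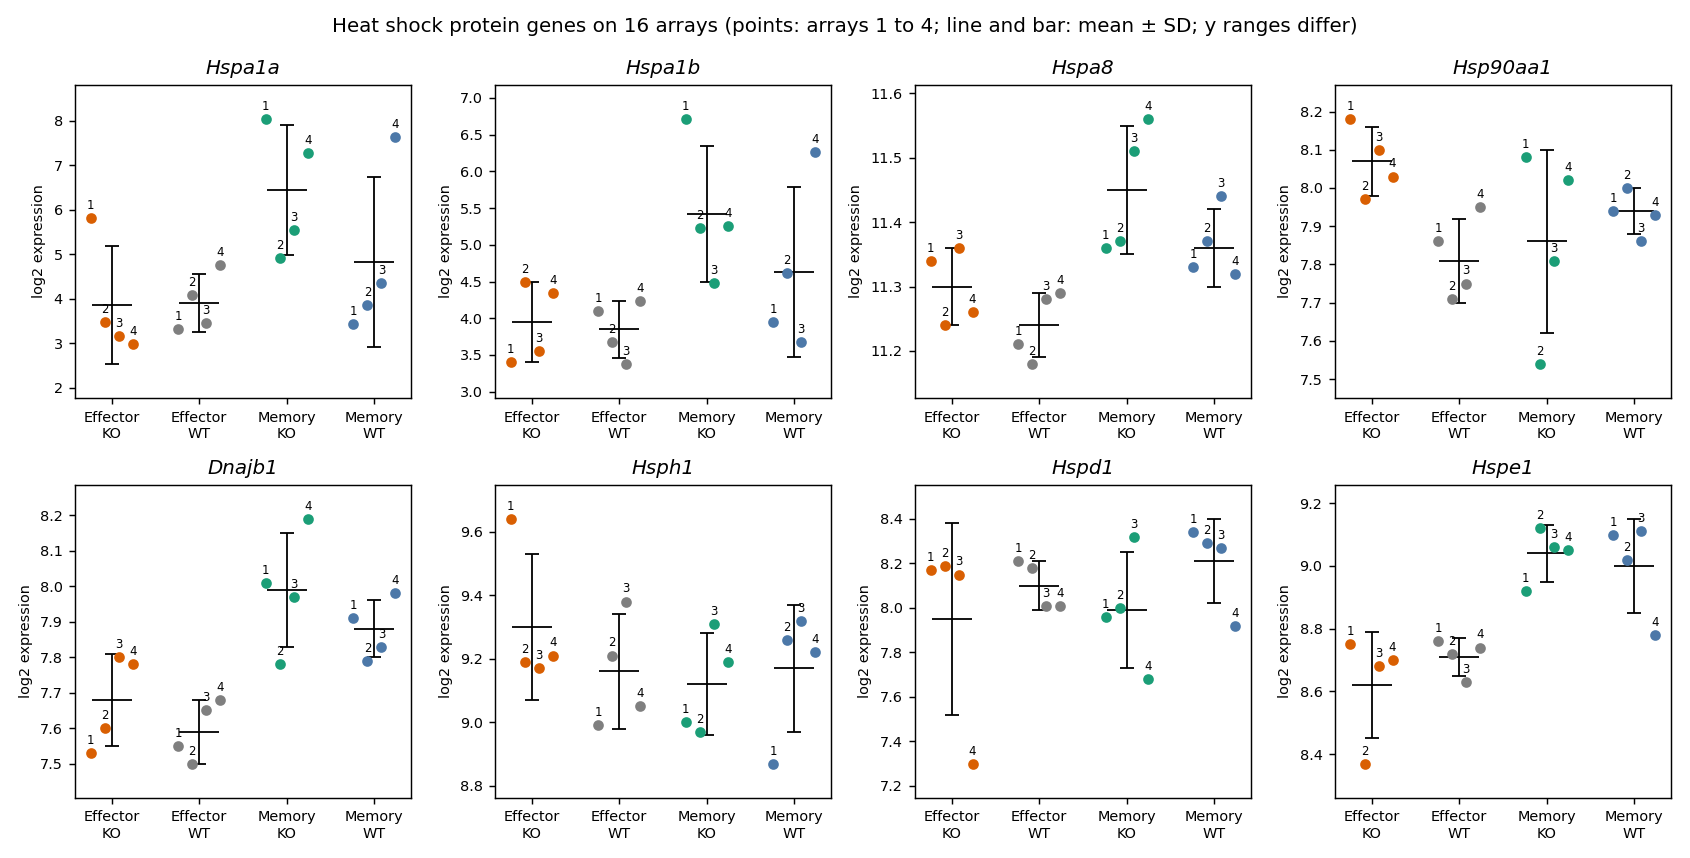
Log2 expression of the 8 measured heat shock protein genes by group, with 1 point per array labelled by its array number and mean ± SD as line and bar; each panel has its own y range. Hspa1a spans 2.99 to 8.04 while Hspa8 spans 11.18 to 11.56. Of the 8 genes only Hspe1 has all effector arrays below all memory arrays, a separation not counted over all genes.

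The subset comparison set effector against memory cells, averaged over both genotypes, with limma fitted to all 22180 genes and Benjamini-Hochberg adjustment over them. Hspe1, Dnajb1 and Hspa1b fell in effector cells relative to memory cells, and no heat shock protein gene rose. These 3 of 8 genes stand beside a background of 12.2% of all genes called in either direction, 7.11% lower and 5.05% higher. Hspe1 averaged 8.67 ± 0.13 in effector and 9.02 ± 0.12 in memory cells (SD, n = 8 each), a difference of -0.35 ± 0.07 (SE; limma adjusted p = 0.00343), or 1.28-fold lower. Dnajb1 averaged 7.64 ± 0.11 in effector and 7.93 ± 0.13 in memory cells, a difference of -0.30 ± 0.07 (SE; limma adjusted p = 0.00946). Hspa1b averaged 3.90 ± 0.45 in effector and 5.02 ± 1.06 in memory cells, a difference of -1.13 ± 0.35 (SE; limma adjusted p = 0.0476). Only 3 of the 8 effector arrays lay above their array's median for Hspa1b, so no fold is given.

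The larger HSP70 difference did not pass. Hspa1a averaged 3.88 ± 0.96 in effector and 5.63 ± 1.80 in memory cells (SD, n = 8 each), a difference of -1.75 with a 95% interval of -3.04 to -0.46 (limma adjusted p = 0.0752). Below the lowest memory array lay 3 of the 8 effector arrays, and the others overlapped with memory arrays. The calls of the inducible pair turned on single arrays: Hspa1b missed the threshold in 11 of the 16 fits that left out an array, with an adjusted p of up to 0.0969, and Hspa1a passed without Effector KO 1 (0.0296) or without Memory KO 2 (0.0452). Without Memory WT 4, a high array for both genes, the Hspa1b difference was -0.86. Hspe1 and Dnajb1 passed in all 16 such fits.

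The other 4 genes did not pass in effector against memory cells. The differences were -0.14 for Hspa8 (95% interval -0.25 to -0.02), -0.07 for Hspd1 (-0.34 to 0.20), 0.04 for Hsp90aa1 (-0.12 to 0.21) and 0.09 for Hsph1 (-0.12 to 0.29). Without Effector KO 4 the Hspd1 difference was 0.04, that of Hspa1a was -1.61 (limma adjusted p = 0.114), and the same 3 genes passed. The median over the 8 genes was -0.22, against 0.01 over all genes, and 6 of the 8 were lower in effector cells. A bulk value cannot tell fewer cells of a type from less RNA per cell.

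**Figure D2:**
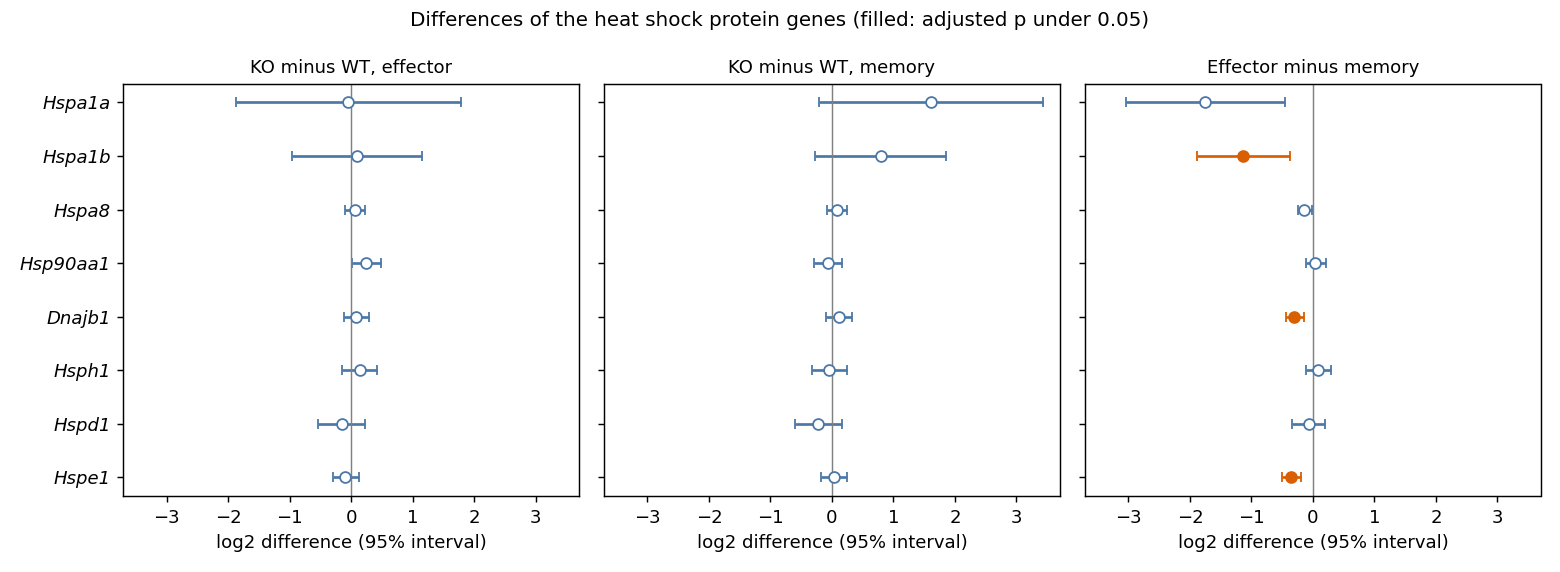
Log2 differences of the 8 genes with 95% intervals from the limma fit, for KO minus WT in effector cells, KO minus WT in memory cells and effector minus memory; filled points have an adjusted p under 0.05. Only Hspa1b, Dnajb1 and Hspe1 in effector minus memory are filled, at -1.13, -0.30 and -0.35, and the intervals of Hspa1a and Hspa1b are the widest.

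The genotype comparison in effector cells called none of the 8 heat shock protein genes, beside 0.0541% of all genes (12 genes) called by limma. At an unadjusted p under 0.05, 1 of the 8 genes was counted, against 2064 of all 22180. That gene was Hsp90aa1, at 8.07 in Effector KO and 7.81 in Effector WT. It differed by 0.25 ± 0.11 (SE, 95% interval 0.02 to 0.49, limma adjusted p = 0.518). Hsph1 differed by 0.14 (95% interval -0.14 to 0.43), and without Effector KO 1 its difference was 0.03. Hspa1a differed by -0.05 with an interval of -1.87 to 1.78, so differences within that range in either direction are compatible with the data at this spread. The direction for Hspa1a, Hspa1b and Hspd1 turned when single arrays were left out: without Effector KO 4 they were 0.25, -0.03 and 0.07, against -0.05, 0.10 and -0.15 with it, and Dnajb1 was 0.05, against 0.08 with it. Il7r, one of the sorting markers, was higher in Effector KO, at 5.69 against 4.04 in Effector WT (limma adjusted p = 0.0183). The part of this difference in the values of the heat shock protein genes was not tested.

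In memory cells, none of the 8 genes passed between KO and WT, beside 0.113% of all genes (25 genes, or 92 without Effector KO 4) called by limma, and none had an unadjusted p under 0.05, against 2496 of all genes. Hspa1a averaged 6.44 in Memory KO and 4.83 in Memory WT, a difference of 1.61 ± 0.86 (SE; 95% interval -0.21 to 3.43; limma adjusted p = 0.508). Hspa1b averaged 5.42 in Memory KO and 4.63 in Memory WT, a difference of 0.79 ± 0.50 (SE; 95% interval -0.27 to 1.86; limma adjusted p = 0.592). Of the 4 Memory KO arrays, 1 lay above the highest Memory WT array for either gene, and Memory WT 4 lay above the other 3. Leaving out 1 array at a time moved the Hspa1a difference between 1.08 and 2.55 and that of Hspa1b between 0.36 and 1.34, with no call. The 6 remaining genes differed by -0.22 (Hspd1) to 0.11 (Dnajb1). Markers of B and leukaemia cells also differed between these groups: Cd22, a B cell surface inhibitor, was lower in Memory KO at 4.52 against 5.55 in Memory WT (limma adjusted p = 0.0145), and 10 of the 11 measured markers had lower means. The summed signal of the 11 markers was 2438 to 3083 in Memory KO and 2009 to 3684 in Memory WT. Their part in the heat shock values was not tested.

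Averaged over both subsets, none of the 8 genes passed between KO and WT, beside 0.194% of all genes (43 genes), and none had an unadjusted p under 0.05, against 3089 of all genes in limma. The median difference over the 8 genes was 0.08, against 0.02 over all genes. Hspd1 differed by -0.18, and by -0.07 without Effector KO 4. The test of whether the KO against WT difference itself differed between effector and memory cells called none of the 8 genes, where 0% of all 22180 genes were called by limma and 1294 had an unadjusted p under 0.05. Hsp90aa1 was the 1 of the 8 genes under that unadjusted level, with a difference of differences of 0.33 ± 0.15 (SE; 95% interval 0.00 to 0.65; limma adjusted p = 0.841). For Hspa1a it was -1.66 with an interval of -4.23 to 0.92. These comparisons share their arrays.

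Array by array, the genes did not move as 1 block. Memory KO 1, Memory WT 4 and Memory KO 4 were the 3 highest of the 16 arrays for Hspa1a, Hspa1b and Dnajb1, across both genotypes, and at the same time the 3 lowest of the 8 memory arrays for Hspd1. Effector KO 1 led the effector arrays for Hspa1a, Hsp90aa1 and Hsph1, yet was among the 2 lowest for Hspa1b and Dnajb1. With group means subtracted, the correlation over the 16 arrays was 0.58 for Hspa1a with Hspa1b, 0.54 for Hspa1a with Hsp90aa1 and 0.51 for Hsp90aa1 with Dnajb1. It was -0.69 for Hspa1b with Hspe1, -0.57 for Hspa1b with Hspa8 and -0.55 for Dnajb1 with Hspd1. These correlations describe the 16 arrays of 1 deposited table and carry no test. No batch, scan date or sorting time is given in the labels, so handling could not be set beside these values.

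**Figure D3:**
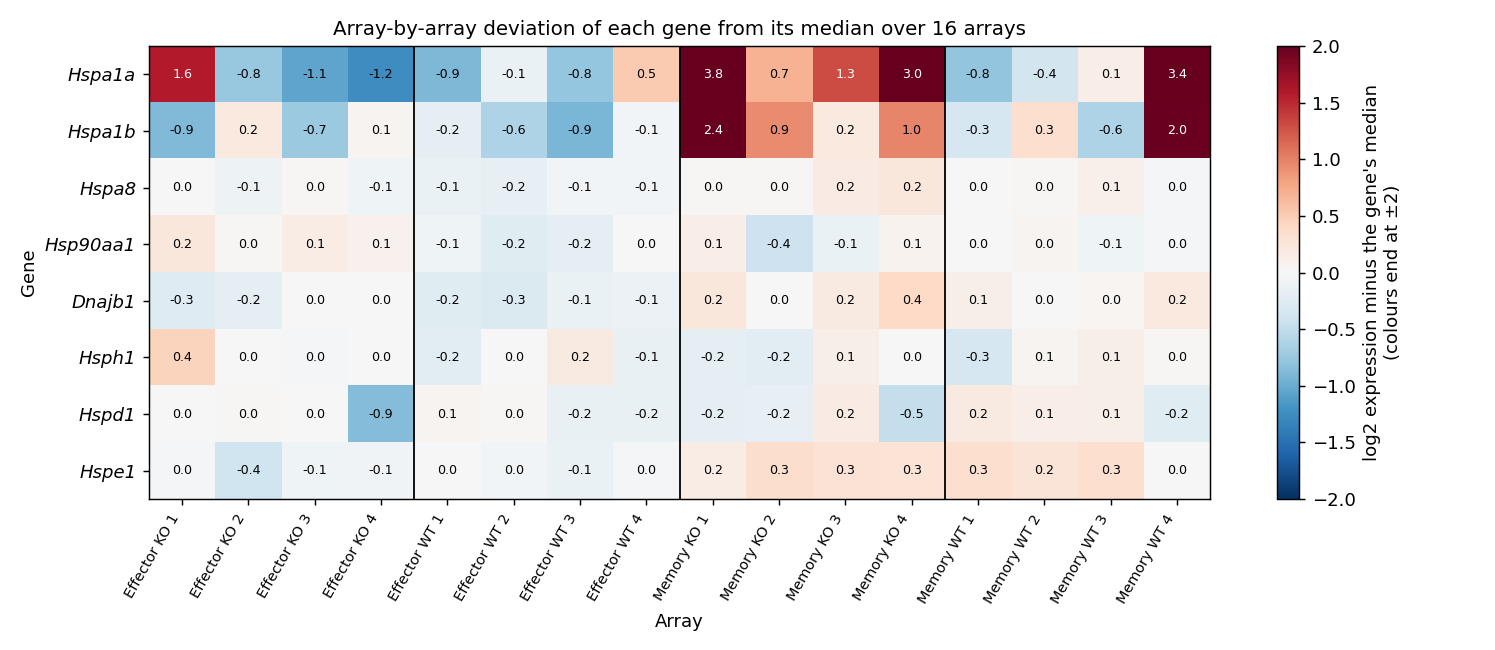
Deviation of each gene's log2 expression from its own median over the 16 arrays (columns: arrays by group; rows: genes; colours end at ±2 and each cell prints its value). Memory KO 1, Memory KO 4 and Memory WT 4 carry the strongest colours for Hspa1a and Hspa1b, while Hspa8 stays near 0 on every array.

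Hspa8 is the only one of the 8 genes with several probe sets of its own, 4 in number, and they differed. The probe set used, 17516365, gave 0.06 for Effector KO minus Effector WT. Probe sets 17548379 and 17548744, which differ from each other by at most 0.02 on any array, gave 0.78 (limma adjusted p = 0.54 for both), and 17434475 gave 0.27 (limma adjusted p = 0.53). Without Effector KO 4 the same differences were 0.08 on 17516365, 0.25 on 17548379, 0.26 on 17548744 and 0.21 on 17434475, a fit chosen after seeing the data (limma adjusted p between 0.869 and 0.928). On 17548379 the Effector KO arrays read 8.51, 7.66, 7.82 and 10.10 and the Effector WT arrays read 7.74, 7.72, 7.81 and 7.72. The Effector KO 4 array was thus the highest of the 16 on that probe set, while on 17516365 it was in the middle of the effector arrays at 11.26. In effector against memory cells the 4 probe sets gave differences between -0.19 and -0.14, and none passed.

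**Figure D4:**
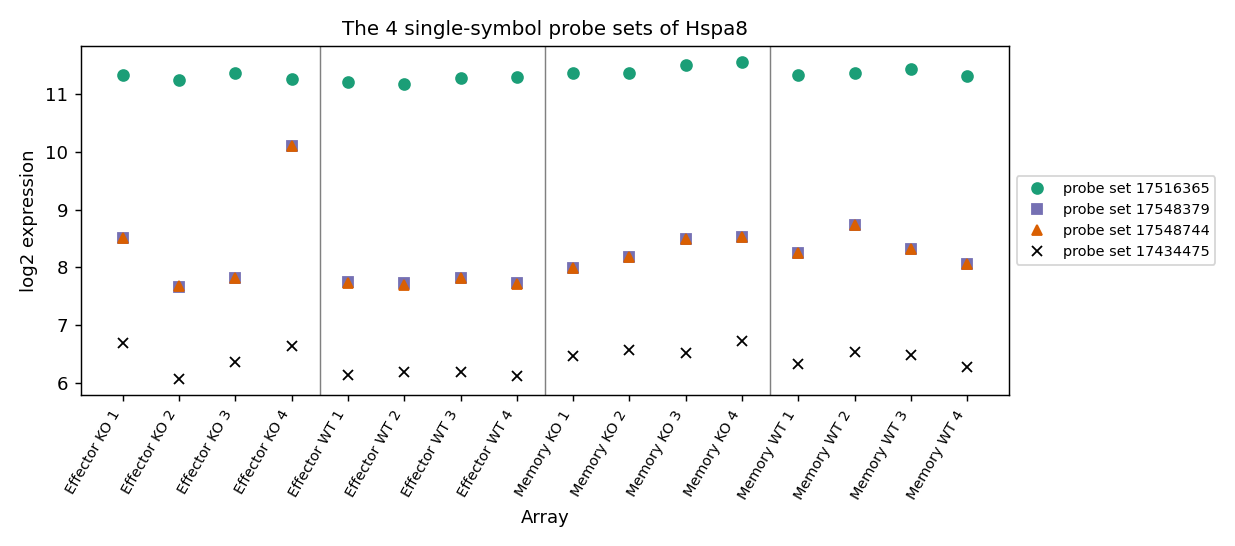
Log2 expression on each of the 16 arrays from the 4 probe sets that belong to Hspa8 alone (x axis: arrays by group; symbols: probe sets). Probe set 17516365 stays between 11.18 and 11.56, and the 2 overlapping probe sets reach 10.10 on Effector KO 4 alone.

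The wider chaperone network was described with 34 measured partners of HSP70 and HSP90. In effector against memory cells limma called 8 of them (23.5%, against 12.2% of all genes), 6 lower and 2 higher in effector cells. Lower were Hspbp1, a nucleotide exchange factor of HSP70, at 7.19 in effector and 7.74 in memory cells (-0.55 ± 0.08 SE), Dnajb2, a J-protein, at 4.67 and 5.43 (-0.76 ± 0.13), Ptges3, the HSP90 co-chaperone p23, at 5.44 and 5.89 (-0.45 ± 0.10), and Trap1, the mitochondrial HSP90, at 7.26 and 7.56 (-0.30 ± 0.07). Higher, and named after their values were seen, were Ahsa2, related to the HSP90 activator Ahsa1, and Fkbp5, a glucocorticoid-responsive HSP90 co-chaperone. None of the 34 passed between KO and WT in either subset. The median difference over the 34 in effector against memory cells was -0.07.

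The cytosolic chaperonin TRiC, which folds actin and tubulin, had lower means in effector than in memory cells for all 8 of its subunit genes. Their median difference was -0.16. Among all 22180 genes, 10388 were lower in effector cells, and the median was 0.01. Beside 12.2% of all genes called in either direction, 2 of the 8 subunit genes passed. These were Cct4, at 7.90 in effector and 8.30 in memory cells (-0.40 ± 0.07 SE; limma adjusted p = 0.00126), and Cct6a (-0.30 ± 0.08 SE; limma adjusted p = 0.0226). Of 19 chaperones and sensors of the endoplasmic reticulum, 5 rose in effector relative to memory cells and none fell (26.3% called, against 12.2% of all genes). Syvn1, an E3 ligase of the degradation pathway there, averaged 7.50 in effector and 7.10 in memory cells. Atf6, a sensor of unfolded protein in the lumen, averaged 9.59 in effector and 9.04 in memory cells, and the co-chaperone Dnajb11 averaged 7.50 in effector and 7.14 in memory cells. The median over the 19 was 0.11. None of the 8 or the 19 passed between KO and WT.

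Other genes that respond quickly to handling or stress were mixed. Of 25 immediate early genes, 6 fell and 3 rose in effector relative to memory cells (36.0% called, against 12.2% of all genes). Klf2, a quiescence factor, averaged 6.43 in effector and 7.53 in memory cells, and Myc averaged 7.74 in effector and 8.61 in memory cells. Ier2 and Klf6 also fell, by 0.35 and 0.55 on the log2 scale. The 3 that rose, named after their values were seen, were Egr1, Egr2 and Nr4a2, which T cell receptor signals induce. The arrays highest for these genes overlapped in part with those highest for HSP70. The mean log2 value of the 25 genes was highest on Effector KO 1 at 7.86, then Memory WT 4 at 7.78 and Memory WT 1 at 7.72, while Memory KO 1 and Memory KO 4 read 7.63 and 7.56. By summed signal, Effector KO 1 (8674) was followed by Memory KO 1 (8644) and Memory WT 4 (8474), with Memory KO 4 at 7867. Of 15 genes of the oxidative and p53 responses, 4 fell and 2 rose (40.0% called, against 12.2% of all genes), and Gclm, which makes glutathione, fell to 5.49 in effector cells, against 6.07 in memory cells. None of these 25 and 15 genes passed between KO and WT. At an unadjusted p under 0.05 in limma, 7 of the 25 were counted in effector cells, 5 in memory cells and 9 over both. For the 15 these counts were 1, 5 and 3, and for all 22180 genes 2064, 2496 and 3089. The median KO minus WT difference of the 25 was 0.16 in effector and 0.14 in memory cells, and 0.14 over both. Over all genes it was 0.01, 0.02 and 0.02. The median of the 15 was 0.10 in effector and -0.08 in memory cells, and -0.06 over both.

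**Figure D5:**
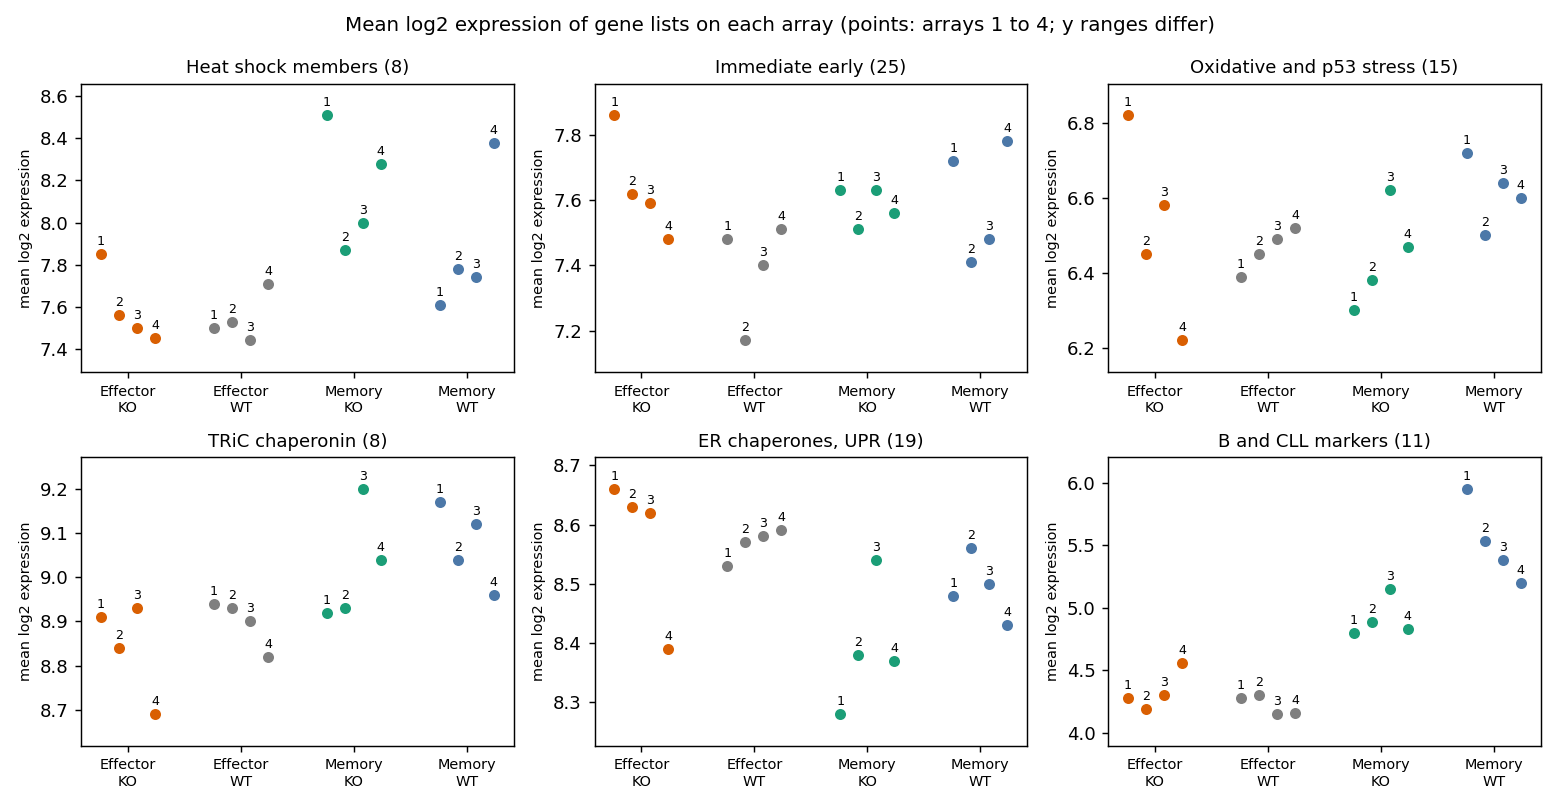
Mean log2 expression of 6 gene lists on each array by group (points: arrays, labelled by array number; each panel has its own y range). The mean of the 8 heat shock protein genes is highest on Memory KO 1, Memory WT 4 and Memory KO 4. By summed signal, not drawn, the 8 genes are highest on Memory KO 4 (5082), Memory KO 3 (4956) and Memory WT 3 (4785). Memory KO 1 reads 4760 and Memory WT 4 reads 4607 by that measure. The immediate early mean is highest on Effector KO 1, and the B and CLL marker mean is higher in both memory groups than in both effector groups.

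Markers of other cells moved with the subset comparison. Of 11 measured markers of B and leukaemia cells, 9 were lower in effector than in memory cells and none higher (81.8% called, against 12.2% of all genes). Their summed signal was 693 to 1239 in Effector KO, 546 to 781 in Effector WT, 2438 to 3083 in Memory KO and 2009 to 3684 in Memory WT, most of it from Ighm, which averaged 9.24 in effector and 11.21 in memory cells. Cd79b, a B cell receptor subunit, averaged 5.01 in effector and 6.33 in memory cells. Among markers that define B cells, Ms4a1 lay above the array median on 6 of the 16 arrays, and so did Pax5 on 6 and Cd79a on 10, both named after their values were seen. Of 12 myeloid markers 3 were lower and 1 higher in effector cells, of 6 natural killer cell markers 2 were lower and 1 higher, and none of the markers of red cells (2), platelets (5) and CD4 or regulatory T cells (5) passed. Their part in the lower Hspe1, Dnajb1 and Hspa1b of effector cells was not tested. On the arrays with the highest HSP70 values, the B and CLL marker mean was 4.80 on Memory KO 1, 4.83 on Memory KO 4 and 5.20 on Memory WT 4, the 2 lowest Memory KO arrays and the lowest Memory WT array for that mean. By summed signal they read 2786, 3083 and 2009, which puts Memory KO 4 highest in its group and Memory WT 4 lowest in its own.

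The genes most like the heat shock set were sought among 9886 genes above the array median on all 16 arrays. The heat shock genes themselves, predicted genes (Gm and LOC symbols) and RIKEN clones are not among the 9886. The genes chosen were those whose values, with group means subtracted, correlated best with the mean of the 8 genes. They were Ranbp10 (r = 0.87), Sh2b1 (0.87), Rsrp1 (0.86), Ric8a (0.86) and Ap1g2 (0.86). Ranbp10 read 7.80 on Memory KO 1, 7.74 on Memory KO 4 and 7.96 on Memory WT 4, against 7.51 to 7.65 on the other memory arrays. Against the mean of Hspa1a, Hspa1b, Dnajb1 and Hsph1, the leading genes were Sh2b1 (0.88), Rsrp1 (0.87), Sbf1 (0.86), Ric8a (0.85) and Fam160a2 (0.84). Since Hspa1a and Hspa1b vary most, both means follow them. These values are descriptions and carry no test.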

How the data were processed

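RNA of sorted spleen CD8 T cells was extracted with a micro column kit and 1 ng was amplified and biotin-labelled for the arrays, per the labels' protocols. The deposited table holds 1 log2 value per probe set and array. That the base is 2 follows only from the span of the table, 0.7365 to 14.0453, and how the authors normalized the arrays is not given in the sources used here. Of 41345 probe sets, 23521 carried 1 gene symbol, 1814 carried several and 16010 were not listed; the brightest probe set of each gene gave 22180 genes. Symbols were checked by Entrez ID against RefSeq for 23328 probe sets, and 0 changed. No filter on dim probe sets was used.

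All 16 arrays entered a single linear model with a mean for each of the 4 groups, made with limma 3.58.1 under R 4.3.3 (12 residual degrees of freedom, prior 4.23). Tests are two-sided, with Benjamini-Hochberg adjustment over all genes of a comparison and a threshold of 0.05. The fit was tested on simulated data. The precision is limited by the number of arrays.

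The 10 genes and all gene lists were chosen with earlier results of these data known, so no count over them is independent evidence. All 10 genes were described. From every other list the rule allowed up to 4 genes that passed by smallest p. It also allowed the sort genes Cd44 and Il7r, Cd8a, Cd8b1, Il4i1, and the 5 genes most like the set by correlation. Not all of these are named. The endoplasmic reticulum and the oxidative and p53 lists have fewer names than allowed, and the myeloid and natural killer lists have none. Where no gene of a list passed, the genes the rule allowed are also left out. Genes named outside the rule are marked. Cd44 averaged 6.03 in effector and 6.78 in memory cells.

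Alternatives were quantile normalization, a filter on dim genes (above the array median on at least 4 arrays), the mean of all probe sets of a gene, array weights, the replicate number as a fixed block, genotype and number as a random block, the arrays of 1 subset alone, and leaving out each array. Subtracting array medians and fitting each Hspa8 probe set alone, also without Effector KO 4, were added after seeing the data.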

Additional observations from a re-analysis of the deposited data

Results flagged for a closer look

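The 8 genes in the 4 groups gave 32 sets of 4 values. Of these sets, 3 held a value set apart from the others by more than Dixon's critical gap, which chance alone passes in about 1 of 20 sets. The sets share the same 16 arrays, so they are not independent. All 3 values set apart lay in Effector KO, each for another gene and on another array. Hsph1 read 9.64 on Effector KO 1, against 9.17 to 9.21 on the other Effector KO arrays. Hspd1 read 7.30 on Effector KO 4, against 8.15 to 8.19 on the others. Hspe1 read 8.37 on Effector KO 2, against 8.68 to 8.75 on the others. Effector KO 4 also had the lowest array weight over all genes, 0.23, and Effector KO 1 the next lowest, 0.618. The weight of Effector KO 2 was 1.089.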

How the results depend on the processing

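Between KO and WT, none of the 8 genes passed under any alternative in either subset, in their average or in the test of the difference between subsets. In effector against memory cells, Hspe1 and Dnajb1 passed under all alternatives, with adjusted p-values up to 0.00966 and 0.0235. Hspa1b missed the threshold with array medians subtracted (0.0539) and in 11 fits without 1 array, and Hspa1a passed with array weights (0.0448). The cause was not tested. Of 790 repeats of 33 differences, 752 kept direction and side of the threshold, 12 lost a call, 3 gained one and 23 turned in sign, all of the last among differences that had not passed. With array weights, effector KO minus WT became -0.01 for Hspa1b and 0.01 for Hspd1, and effector minus memory became 0.01 for Hspd1. With probe sets 17548379 or 17548744, memory KO minus WT became -0.05 for Hspa8. Leaving out 1 array at a time, effector KO minus WT ranged from -0.70 to 0.25 for Hspa1a, -0.08 to 0.28 for Hspa1b and -0.23 to 0.07 for Hspd1. Memory KO minus WT ranged from -0.15 to 0.03 for Hsp90aa1, -0.15 to 0.00 for Hsph1 and -0.04 to 0.07 for Hspe1. KO minus WT over both subsets ranged from -0.01 to 0.08 for Hsph1 and -0.06 to 0.02 for Hspe1. Effector minus memory ranged from -0.01 to 0.08 for Hsp90aa1 and -0.12 to 0.04 for Hspd1.

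The number of all genes called moved more. Without 1 array it ranged from 4 to 42 (12 with all arrays; 42 without Effector KO 2) in effector KO against WT, 11 to 249 (25; 249 without Memory KO 3) in memory KO against WT, 23 to 329 (43; 329 without Effector KO 2) over both subsets and 0 to 5 (0; 5 without Memory KO 3) for the difference between subsets. Fitting 1 subset alone called 4 in effector and 7 in memory cells. Array weights called 42 in memory cells and 72 over both subsets, subtracting medians called 38 and 65, and the filter on dim genes called 92 over both subsets. The labels share replicate numbers between groups but do not say whether they mark pairs, and the main fit did not pair them. Same-numbered effector and memory arrays of the same genotype correlated by 0.018 to 0.239 after group means were subtracted. Each Effector WT array correlated best with the Memory WT array of its number, in 4 of 4 cases, and Effector KO with Memory KO in 3 of 4. Between KO and WT groups, arrays numbered 2 also matched each other best, at 0.081 to 0.139. The other numbers did so in part or not at all. What the shared numbers stand for was not tested. With the replicate block, 29 genes were called in effector cells, 104 in memory cells and 389 over both subsets, and the calls of the 8 genes stayed at 0, 0, 0 and, for effector against memory, 3.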
